A study of Bos taurus with 16 samples.

Results

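The genes described here are 8 enzymes of the pathway by which animal cells make cholesterol, measured in pools of bovine blastocysts. They are HMGCS1, MVD, IDI1, FDPS, FDFT1, SQLE, LSS and DHCR7, and were chosen by gene symbol among the 22358 loci of the count tables. Each symbol named 1 locus. Blastocysts came from 8 lactating Holstein cows. From calving until flushing, 4 cows received a control diet (Control) and 4 received the same basal diet with added rumen-protected methionine (Methionine). Good or excellent expanded blastocysts of each cow were divided into 2 small pools, which gave 16 pools named here by diet, cow and pool (C1.1 to C4.2 and M5.1 to M8.2). By the study's supplement, C4.1, C4.2 and M8.2 were single blastocysts. Several Methionine pools held more blastocysts, and several had lower RNA quality values, than any Control pool with a value. The part of pool size and RNA quality in the values below was not tested. The cows were superovulated and inseminated in the methods of the study, whereas the tissue label of every pool names IVF embryos. The age of the cows is not given in the sources used here. The RNA of every pool was linearly amplified before library preparation, and both pools of a cow share the dam.

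Cholesterol is built from acetyl-CoA. The mevalonate steps (HMGCS1, MVK, PMVK and MVD among them) make the isoprene unit that IDI1 and FDPS join into farnesyl diphosphate, from which isoprenoids for protein prenylation and ubiquinone also branch off. FDFT1 commits farnesyl diphosphate to squalene, SQLE and LSS turn squalene into lanosterol, and later enzymes, DHCR7 among them, turn lanosterol into cholesterol. When sterols are scarce, the transcription factor SREBP2 (encoded by SREBF2) is escorted by SCAP from the endoplasmic reticulum for processing and then activates the genes of these enzymes. In a blastocyst, cholesterol is a component of the membranes of dividing cells and a substrate for modifying hedgehog proteins.

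Total counts ranged from 5624126 to 7826542 (median 7257007) in 15 pools, where 3 counts correspond to between 0.383 and 0.533 CPM, the count scaled to the total count of the pool. Pool C3.2 held 1745048 counts. The study set this pool aside because an unusually small part of its aligned reads fell on annotated exons, and named a fault in library preparation as possible. It was left out of the comparison here too, so that 7 Control and 8 Methionine pools were compared and cow 3 was represented by 1 pool. The summed level of 5 trophectoderm genes lay between 2260 and 7840 CPM in the 15 pools. KRT18 gave most of it (364853 counts in all), whereas CDX2 had 0 to 203 counts in a pool. The summed level of 3 hypoblast genes lay between 41.1 and 157 CPM, nearly all from GATA6, as SOX17 had no counts in any pool. Pool C2.1 stood apart in the sum of 8 leukocyte genes, 1740 CPM against 18.7 to 56.0 CPM in the other 14 pools. Most of it came from LAPTM5 (6969 counts) and TYROBP (2122 counts). CD3E had no counts in any pool, and CD48 had counts in every pool. Without CD48 the sum was 1700 CPM in C2.1 and 0.136 to 22.0 CPM in the others. A pool is a bulk sample, in which fewer cells of a type and less RNA per cell cannot be told apart.

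HMGCS1 (locus XLOC_010069) condenses acetyl-CoA with acetoacetyl-CoA at the entry of the pathway. Its level in Control pools was 12.2 CPM at the lowest, 48.7 at the median and 118 at the highest, and in Methionine pools 11.0, 57.6 and 160 CPM. The lowest and the highest pool of all were both Methionine pools, M5.2 and M6.1, and the ranges of the diets overlapped nearly throughout. MVD (XLOC_007311) decarboxylates mevalonate diphosphate to the isoprene unit. It was at 5.42, 15.9 and 44.5 CPM in Control pools and at 1.18, 2.67 and 19.9 CPM in Methionine pools. The ranges overlapped: M5.2 (19.9 CPM), M7.2 (13.4 CPM) and M5.1 (5.79 CPM) lay among the Control pools. The other 5 Methionine pools lay below every Control pool.

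IDI1 (XLOC_003321) interconverts the isoprene unit and its isomer. It was at 0.269, 4.49 and 19.2 CPM in Control pools and at 0.557, 4.71 and 33.9 CPM in Methionine pools. The lowest Control value, in C3.1, rested on 2 counts, which is below the floor of 3. FDPS (XLOC_015535) makes farnesyl diphosphate. Its level was 18.9, 21.8 and 75.8 CPM in Control pools and 3.54, 39.0 and 51.5 CPM in Methionine pools. A single pool stood far from the rest in each diet, C2.2 above the other Control pools and M6.1 below the other Methionine pools.

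FDFT1 (XLOC_020271), squalene synthase, was at 13.2, 26.5 and 58.5 CPM in Control pools and at 8.25, 40.3 and 79.2 CPM in Methionine pools. SQLE (XLOC_004273) oxidises squalene in a step that needs oxygen. It was at 1.80, 8.67 and 45.3 CPM in Control pools and at 3.0, 5.06 and 67.8 CPM in Methionine pools. SQLE fell into high and low pools within both diets: C1.1, C2.1, C4.1, M5.1, M5.2 and M7.2 were at 22.6 CPM or above, and the other 9 pools were at 8.67 CPM or below.

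LSS (XLOC_000857), which closes squalene epoxide into the sterol ring system, had 1 count in C4.1, 1 count in M5.1 and none in the other pools. It did not reach the minimum for testing, and no diet difference was detectable at this depth. DHCR7 (XLOC_014749) reduces 7-dehydrocholesterol to cholesterol. Its level was 79.9, 110 and 197 CPM in Control pools and 67.3, 156 and 226 CPM in Methionine pools. DHCR7 varied least of the 7 measured enzymes, with a coefficient of variation of 34.4% over the 15 pools against 51.1% for FDPS and 112% for SQLE.

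**Figure D1:**
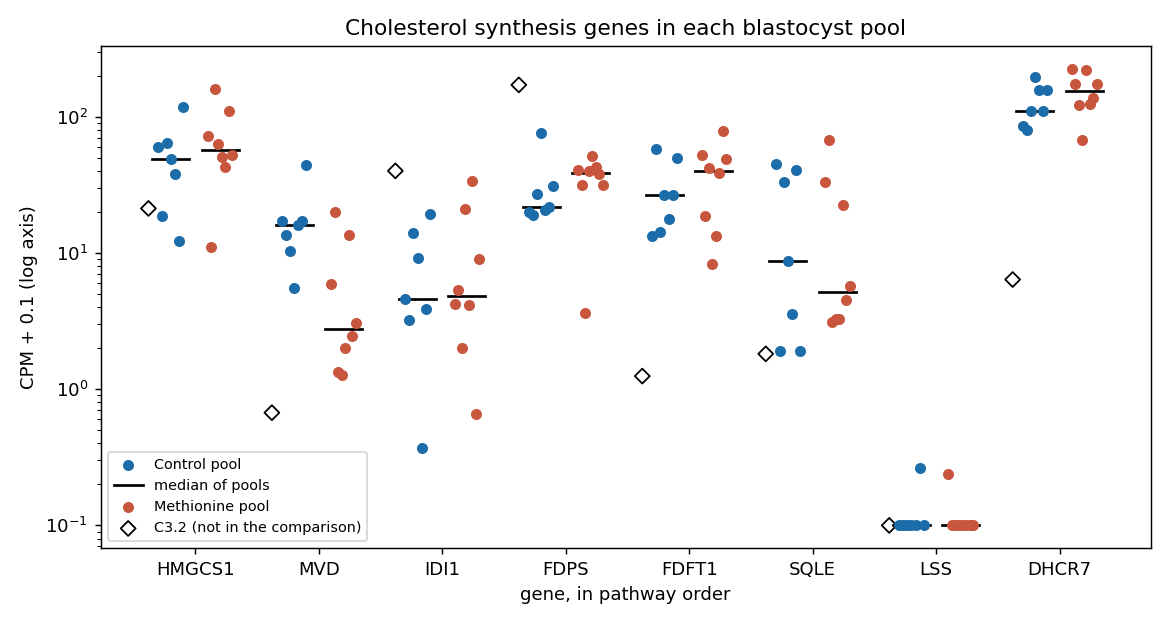
Level of each synthesis gene in each pool, in CPM plus 0.1 on a log axis, with genes in pathway order. Filled points are pools of the Control (blue) and Methionine (red) diets, bars are the medians of the pools and open diamonds are pool C3.2. The Control and Methionine points overlap for every gene, the Control median of MVD (15.9 CPM) lies above the Methionine median (2.67 CPM), and LSS lies at the bottom of the axis.

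The diet comparison asked whether added methionine in the diet of the dam was accompanied by another level of these transcripts in the blastocysts. None of the 7 tested enzymes passed the thresholds of the study (false discovery rate under 0.10 and 2-fold, edgeR exact test), which 110 of 10519 loci (1.05%) passed. At an unadjusted p under 0.05, a limit met by 898 loci (8.54%), MVD was the only enzyme of the list. With edgeR's quasi-likelihood test, no enzyme of the list passed and 0 of 10519 loci (0.0%) did, while 909 loci (8.64%), with MVD the only enzyme of the list among them, had an unadjusted p under 0.05. DESeq2 called 67 loci (0.637%) and none of these enzymes, and 7.42% of loci had an unadjusted p under 0.05 with it. None of the enzymes was called either with the pools of a cow summed (0.742% of loci called), with DESeq2 size factors (1.11%), with total counts as the scaling (0.941%), without the filter on low values (0.316%), with all 16 pools (3.3%) or without C2.1 (0.625%).

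MVD had a mean of 17.7 ± 12.5 CPM (SD, n = 7) in Control pools and 6.09 ± 6.90 CPM (SD, n = 8) in Methionine pools. The log2 fold change, Methionine over Control, was -1.57 with an adjusted p of 0.411 in the edgeR exact test (unadjusted p = 0.0243) and of 0.437 in the quasi-likelihood test. DESeq2 gave -1.57 ± 0.646 (SE, 95% interval -2.84 to -0.303). The cow is the independent unit of the diet. The mean MVD level was 15.3, 7.86, 15.9 and 30.8 CPM in Control cows 1 to 4 and 12.9, 1.20, 7.64 and 2.67 CPM in Methionine cows 5 to 8. The Control cow was the higher in 15 of 16 pairs of a Control and a Methionine cow. A two-sided exact permutation test of these means on the log2(CPM + 1) scale gave p = 0.0571 (1.0 after adjustment over all loci, of which 2.29% had a p under 0.05), where 0.0286 is the smallest value that 70 assignments allow. With the pools of each cow summed, the unadjusted p of MVD was 0.0538 in the exact test. The unadjusted p of the exact test ran from 0.00609 without cow 5 (log2 fold change -2.18) to 0.147 without cow 4 (-1.11) when each cow was left out. It was above 0.05 also without cow 6 (0.094), without cow 8 (0.0796) and with all 16 pools (0.0679). Limma voom with cow as random effect gave an unadjusted p of 0.00659. The quasi-likelihood test with pool number as a block gave 0.00936, but pool numbers only name pools, so this block pairs nothing.

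The other 6 tested enzymes had log2 fold changes between -0.25 (SQLE) and 0.47 (HMGCS1), with adjusted p of 0.975 or above in the edgeR exact test. DHCR7 was bounded most narrowly: DESeq2 gave 0.32 ± 0.274 (SE) with a 95% interval of -0.216 to 0.859. Intervals were -0.484 to 1.47 for HMGCS1, -0.588 to 1.13 for FDPS and -0.587 to 1.32 for FDFT1, so that a 2-fold higher level in Methionine pools lay inside each. For IDI1 (-1.19 to 1.93) and SQLE (-1.89 to 1.34), a 2-fold difference in either direction lay inside the interval. All these intervals treat both pools of a cow as independent. Over the 7 enzymes, 5 log2 fold changes were positive and 2 negative, with a median of 0.31. Over all 10519 loci tested, 4888 were positive and 5631 negative, with a median of -0.05.

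**Figure D2:**
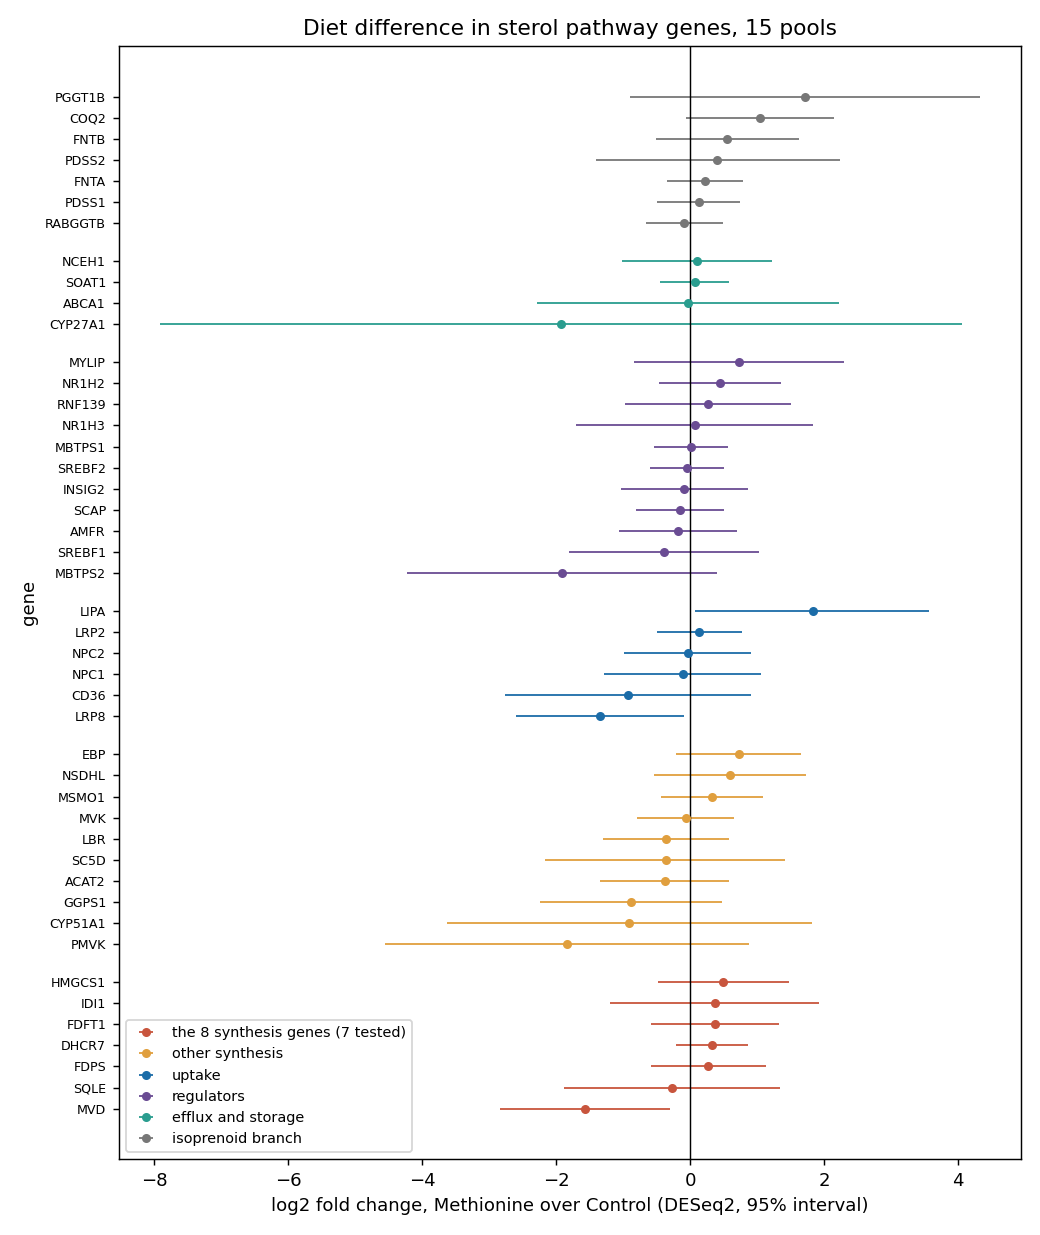
Log2 fold change between diets (Methionine over Control, DESeq2) on the x axis for tested genes of the sterol lists on the y axis, with 95% intervals as bars and lists in colours. MVD (-1.57) is the only one of the 7 enzymes whose interval does not reach 0. The intervals treat both pools of a cow as independent. LIPA and PMVK have the opposite sign in the edgeR exact test (-4.22 and 0.92).

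Levels differed widely between pools. Over the 15 pools of both diets, IDI1 spanned a range of at least 83.8-fold, taken against the floor of 3 counts in its lowest pool. MVD spanned 37.8-fold, SQLE 37.7-fold and DHCR7 3.35-fold. For IDI1, MVD and SQLE the lowest and the highest pool were of different diets. Within a diet, MVD lay between 5.42 and 44.5 CPM in Control pools and between 1.18 and 19.9 CPM in Methionine pools. The biological coefficient of variation, edgeR's estimate of the spread between pools beyond counting error, was 1.04 for SQLE, against a median of 0.784 for loci within 0.5 log2 CPM of its level. HMGCS1 was also more dispersed than loci of its level (0.654 against 0.562), and DHCR7 was less so (0.438 against 0.486). For MVD (0.910 against 0.895) and FDPS (0.645 against 0.669) the values lay close together.

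The pools of 1 cow share a dam and a diet. In 7 cows with both pools, SQLE differed between them by 1.07-fold to 25.1-fold (median 3.84). It was at 45.3 and 1.80 CPM in the pools of cow 1 and at 41.0 and 1.80 CPM in those of cow 4. IDI1 differed by 1.28-fold to 16.0-fold (median 5.05). FDPS was closer, with a median of 1.28-fold, except in cow 6, whose pools were 11.2-fold apart. DHCR7 differed by no more than 1.82-fold (median 1.43). On the log2(CPM + 1) scale, the median absolute difference over all loci tested was 0.805 between pools of a cow and 0.856 between cows of the same diet. In the same order, it was 2.07 and 1.71 for IDI1, 1.83 and 2.12 for SQLE, and 1.45 and 0.982 for FDFT1. HMGCS1 was at 1.34 and 1.04, and MVD at 0.818 and 1.13. DHCR7 (0.515 and 0.504) and FDPS (0.349 and 0.401) lay below the values over all loci, which were not matched for level.

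**Figure D3:**
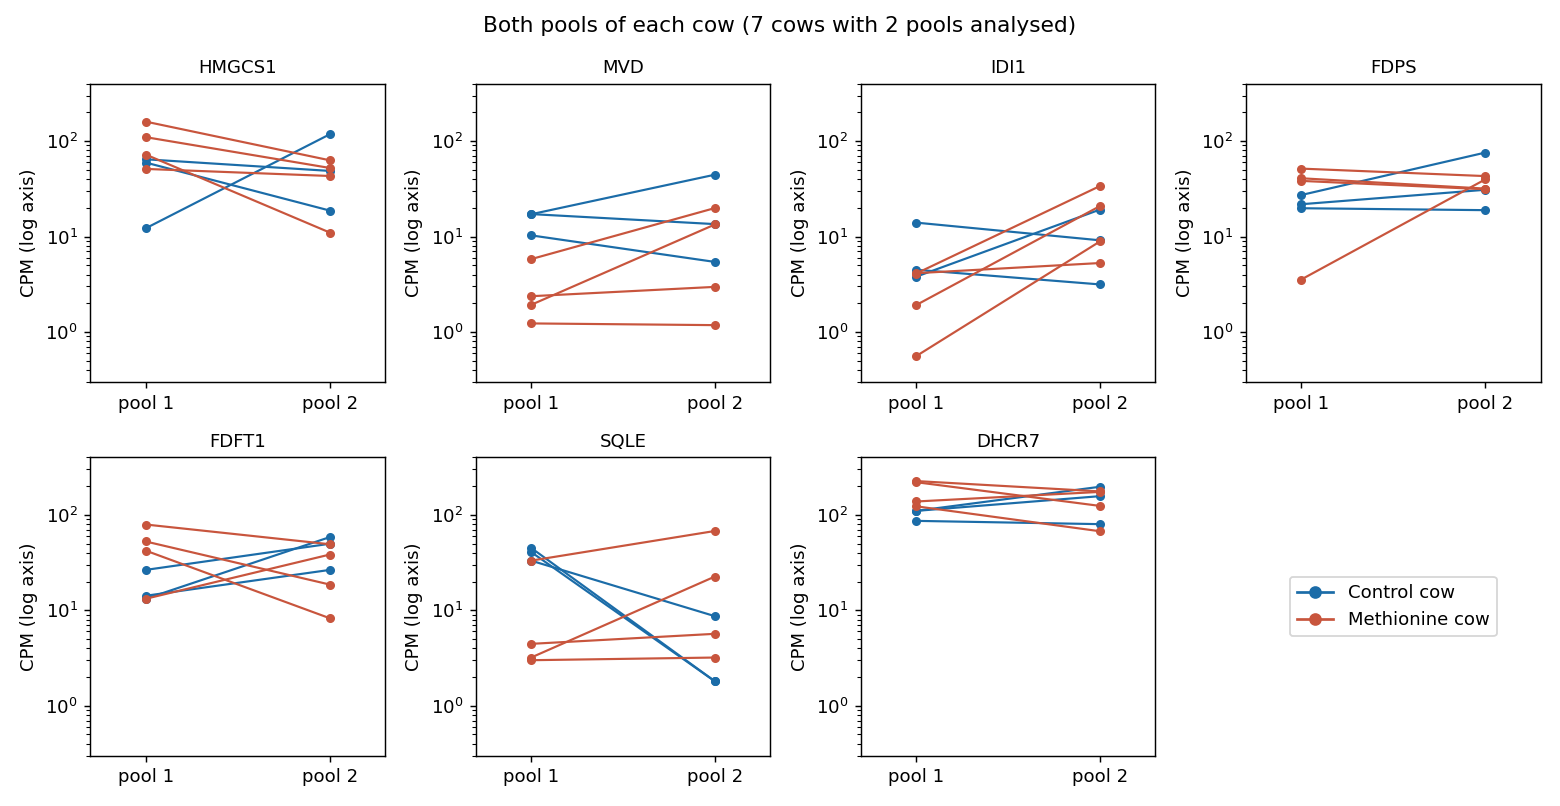
CPM on a log axis in pool 1 and pool 2 of each of the 7 cows with both pools analysed, 1 panel per gene and 1 line per cow (Control blue, Methionine red). SQLE lines are steep in cows 1 and 4 (45.3 to 1.80 and 41.0 to 1.80 CPM), whereas the DHCR7 lines stay within 1.82-fold.

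Whether the enzymes varied together across pools was described next. After the mean of each diet was subtracted, the Spearman correlation of log2(CPM + 1) over 15 pools had a median of 0.075 over the 21 pairs of 7 enzymes. Over all pairs of the 5832 loci at or above the lowest mean level of these enzymes, the median was 0.0393 with quartiles at -0.171 and 0.246. Correlations are given as a description, since pools share cows, depth and amplification. The highest was between FDPS and DHCR7 (0.554) and the lowest between FDFT1 and SQLE (-0.339). Above 0 were 12 of 21, against 9337505 of 17003196 pairs of the 5832 loci.

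Within each diet the pairs had other values. FDPS and DHCR7 were at 0.893 over the 7 Control pools and 0.33 over the 8 Methionine pools. MVD and SQLE were at 0.905 over the Methionine pools, in which M5.2, M5.1 and M7.2 were the highest 3 for both genes, but at 0.11 over the Control pools. HMGCS1 and IDI1 were at 0.821 over Control pools and -0.62 over Methionine pools. The difference between diets was not tested.

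**Figure D4:**
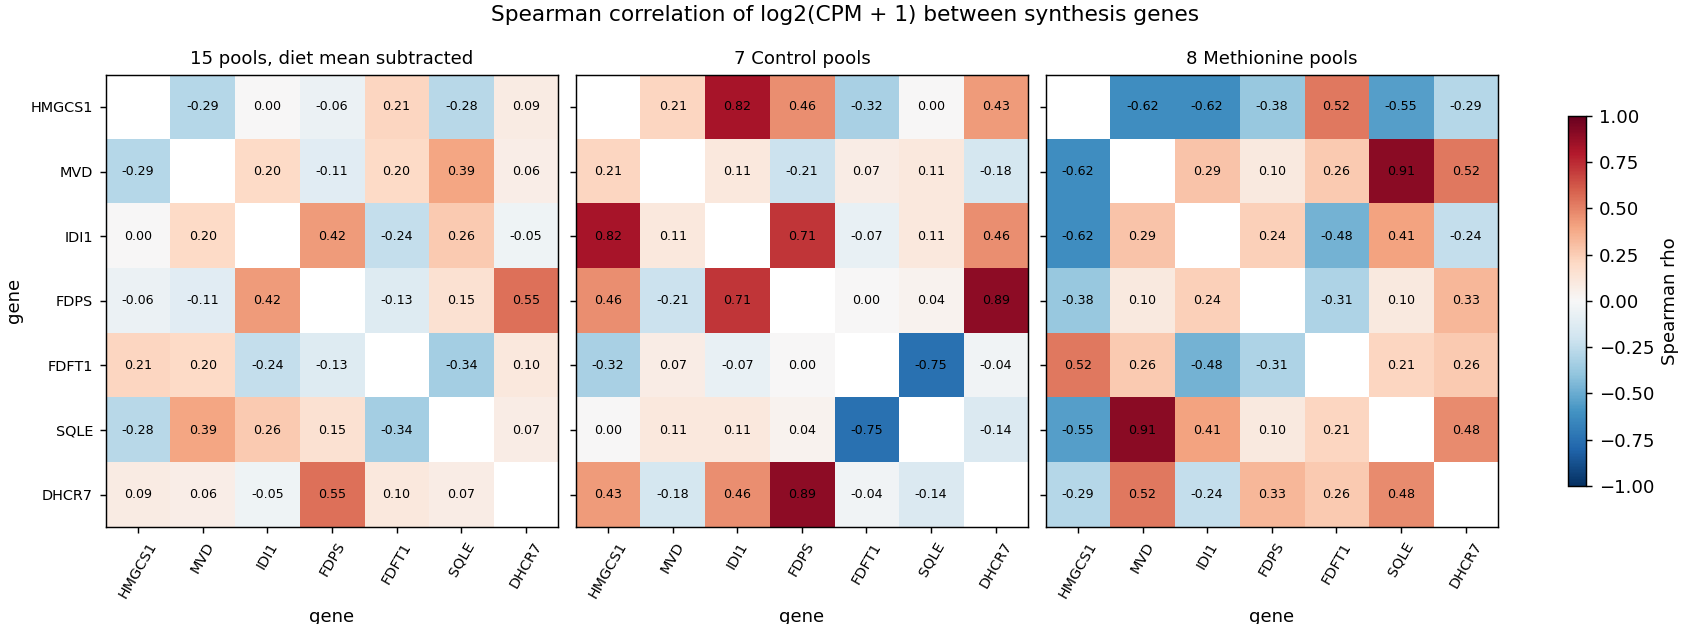
Spearman correlations between 7 synthesis genes (both axes) over 15 pools with the diet mean subtracted, over the 7 Control pools and over the 8 Methionine pools, with the colour scale running from -1 to 1. Colours are pale over the 15 pools (-0.339 to 0.554), and single strong cells, such as MVD with SQLE at 0.905, appear in 1 diet.

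Of 22 synthesis genes listed in the files, 18 were tested and 13 had at least 10 counts in every one of the 15 pools. Among the 11 tested outside the 8, none passed, and the median log2 fold change was -0.07 (-0.88 to 0.92). MVK, the mevalonate kinase, had the highest median correlation to these enzymes of the list genes compared, 0.296, and was above 0 with 7 of 7. The lowest of the other synthesis genes was SC5D, at -0.207. MVK was picked as the highest, so its value is a description.

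Other synthesis genes besides LSS had few counts. TM7SF2 had 0 to 13 counts and HSD17B7 0 to 4 counts. The glycolytic gene GAPDH, named after its values were seen, was also low, with at most 5 counts at 1 of its 2 loci and a median of 5 at the other. Low counts at such loci do not tell whether the transcript was absent.

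Lipoprotein receptors take up cholesterol carried in plasma or fluid. SCARB1, the HDL receptor gene, had 0 to 4 counts and was not tested. LRP2, a large endocytic receptor, had 931 to 4953 counts and a log2 fold change of 0.13. None of the 6 tested uptake genes passed, with a median of -0.51. LRP8, another receptor of this list, had a mean of 11.9 CPM in Control pools and 4.92 CPM in Methionine pools. The log2 fold change of LRP8 was -1.34 (edgeR exact test unadjusted p = 0.0617, adjusted p = 0.634). For LRP8 the permutation test over cows gave an unadjusted p of 0.0857. LIPA, which releases cholesterol from lysosomal esters, had 4806 counts in C2.1, the pool with the high leukocyte genes, against 1 to 32 in the other Control pools and 0 to 123 in Methionine pools. Its log2 fold change was -4.22 (edgeR exact test adjusted p = 0.114) and 2.07 without C2.1 (adjusted p = 0.649). It passed with all 16 pools (adjusted p = 0.0925) and without cow 1, 3 or 4. The part of the leukocyte genes in this was not tested.

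Among regulators, none of 11 tested genes passed. SREBF2 was at 28.9, 51.2 and 74.4 CPM in Control pools and 25.3, 54.1 and 71.9 CPM in Methionine pools, a log2 fold change of -0.05, and had a median correlation of -0.0571 with the 7 enzymes. SCAP had a log2 fold change of -0.16 and SREBF1, the gene of the related factor SREBP1, of -0.40 (adjusted p = 1.0 for both, edgeR exact test). INSIG1, which holds SCAP in the endoplasmic reticulum, had 0 to 31 counts and was not tested. In the list of efflux and storage, 1 of 4 tested genes passed: CYP27A1, the sterol 27-hydroxylase gene, reached 298 counts in C2.1, whereas the remaining Control pools had 0 to 2 and the Methionine pools 0. Its adjusted p was 0.0261 in the edgeR exact test. Without C2.1 it failed the minimum for testing, and the quasi-likelihood test gave an adjusted p of 0.312. None of 7 tested genes of the isoprenoid branch passed (median log2 fold change 0.40, 6 positive, against 4888 positive of all 10519 loci tested).

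The 10 loci outside the list that followed the mean z-score of the 7 enzymes across the 15 pools most closely were PPP1R8, ANKLE2, SUMF1, ZFP106, IMP3, CCDC43, CNOT2, SLC35C1, NOC3L and SWAP70, with Spearman correlations from 0.871 (PPP1R8) down to 0.779 (SWAP70), out of 5402 candidate loci whose 99th percentile was 0.671. Over the means of 8 cows the values were between 0.524 (NOC3L) and 0.905 (ZFP106). They were chosen as the highest of these candidates, so the values are a description.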

How the data were processed

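The deposited files hold, for each pool, whole-number read counts per locus. Per the methods of the study, the authors aligned single-end reads to bosTau7 with TopHat2 2.0.4, assembled and merged transcripts with Cufflinks 2.0.2 and counted reads with HTSeq in its intersection-nonempty mode. Linear amplification starts at the poly(A) tail, and transcript lengths were not used here, so levels are compared between pools and not between genes. Of 22552 entries per file, each of 22358 loci was taken once. CPM is the count divided by the total count of the pool. Loci with a CPM sum of at least 15 over the 15 pools (10519) were tested with the exact test of edgeR 4.0.16 (R 4.3.3, TMM normalisation), the test of the study, and p-values were adjusted by Benjamini-Hochberg over these loci. The quasi-likelihood test of edgeR, DESeq2 1.42.0, limma 3.58.1 (voom with cow as random effect) and an exact permutation test over 8 cows (scipy 1.17.1) were run beside it. The fits were run on simulated counts with planted changes, as a check of the code. The simulated pools had less spread than these data and no cow effect, so error rates here were not tested. P-values over pools treat both pools of a cow as independent, and so do the DESeq2 intervals. No pair of pools had near-identical counts. Genes named are the 8 enzymes, SCARB1, SREBF1, SREBF2, SCAP and INSIG1, list genes with an unadjusted p under 0.05 or a call, and the 10 loci most correlated with the enzymes. Others (MVK, SC5D, LRP2, LRP8, TM7SF2, HSD17B7, PMVK and GAPDH) were named after their values were seen. Some genes that the rule names are not reported here. The members and lists were chosen with earlier results of these data known. SC5D appears in the files as SC5DL. Alternatives were another test, scaling or filter, summed pools, all 16 pools, C2.1 left out, a block for pool number and each cow left out.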

Additional observations from a re-analysis of the deposited data

Results flagged for a closer look

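In 4 of 14 sets of pools (7 enzymes in each diet), 1 pool stood apart from the others by Dixon's test on CPM at its 95% level. About 0.7 of 14 would be flagged by chance if the values were normal and independent. CPM need not be normal, and both pools of a cow entered, so the 4 flags are a description. MVD was at 44.5 CPM in C4.2 against 17.2 CPM in the next Control pool. FDPS was at 75.8 CPM in C2.2 against 30.9 CPM in the next Control pool. FDPS was at 3.54 CPM in M6.1 against 31.3 CPM in the next Methionine pool. SQLE was at 67.8 CPM in M5.2 against 33.1 CPM in the next Methionine pool.

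Pool C3.2, outside the comparison because the study set it aside for its few reads on annotated exons, held levels above every other Control pool for 2 enzymes. IDI1 was at 40.1 CPM (70 counts), against 0.269 to 19.2 CPM in the other Control pools. FDPS was at 172 CPM (301 counts), against 18.9 to 75.8 CPM. DHCR7 was instead at 6.30 CPM (11 counts), below the 79.9 to 197 CPM of the others, and FDFT1 was at 1.15 CPM (2 counts). MVD was at 0.573 CPM (1 count), below every pool of the comparison (lowest 1.18 CPM, in M6.2), and SQLE at 1.72 CPM (3 counts). The FDFT1, MVD and SQLE counts do not exceed the floor of 3. The total of this pool was 1745048 counts, and the study named a fault in its library preparation as possible. The part of depth or library quality in these values was not tested.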

How the results depend on the processing

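None of the enzymes tested was called under any alternative. LSS was tested only without the filter on low values, and MVD and IDI1 were not tested where at least 10 counts were asked of every pool. Of the other sterol genes, 1 was called; this became 0 with the quasi-likelihood test, with cows summed under that test, with DESeq2, voom, at least 10 counts in every pool, without C2.1 or with pool number as a replicate block, 2 with all 16 pools (CYP27A1 and LIPA), and 0 to 2 with each cow left out. No locus at all was called by the quasi-likelihood tests, voom or the block, nor with at least 10 counts in every pool, so those 0 counts say nothing of these genes. Pool numbers only name pools, so the block pairs nothing. With all 16 pools, the log2 fold change became -0.63 for IDI1, -0.83 for FDPS and -0.92 for SREBF2, and the differences of cow means -0.20 for IDI1 and -0.21 for FDPS. Without C2.1 the FDPS cow difference was -0.019. The block gave -0.29 for IDI1 and 0.041 for SQLE, and voom 0.099 for SQLE. With cows summed, SREBF2 was at 0.064 in both tests. LIPA was at 1.83 with DESeq2, 1.09 with voom and 2.07 without C2.1. With each cow left out, log2 fold changes ran from -2.18 to -1.11 for MVD, -0.14 to 0.70 for IDI1, -0.14 to 0.55 for FDFT1, -1.49 to 0.087 for SQLE, -0.18 to 0.14 for SREBF2, -0.29 to 0.0083 for SCAP and -4.70 to 1.84 for LIPA. The cause was not tested. The median log2 fold change of the enzymes (0.31) ran from -0.10 with all 16 pools, the only negative value, to 0.40 without cow 2, and was 0.037 without cow 7. The median correlation (0.075) ran from -0.0618 with all 16 pools to 0.262 over 8 cow means, and was -0.00714 with TMM scaling and -0.0385 without cow 6. Depth limits IDI1, SQLE and MVD, whose lowest pools held 2, 12 and 7 counts, and LSS, with 2 counts in all.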
